A study of Mus musculus with 20 samples.

Results

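The Serpin genes were read as DNA copy number in 20 mouse mesotheliomas, cancers of the lining of the body cavities, which here arose in the abdomen. Members were the autosomal probes whose gene name in the array files begins with Serpin. This gave 87 probes of 161460 autosomal probes and 49 genes of 20325 autosomal gene names. Of the 49 genes, 31 had 1 probe and 7 had at least 3. Members less than 1 Mb apart were joined into 5 clusters with 43 genes, and 6 genes stood alone. RefSeq lists 68 autosomal symbols that begin with Serpin, and the 20 of them with no probe of that name, which include Serpina1a, Serpina5 and Serpind1, are not analysed here. Of the 49 names, 48 were current RefSeq symbols and 1, Serpinb10-ps, was an older one.

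Mice received crocidolite, an iron-rich asbestos, into the peritoneum at 6 and 7 weeks of age, 1.5 mg each time and 3 mg in total, and were followed for 600 to 700 days. Tumour DNA was labelled with Cy5 and DNA of non-neoplastic C57BL/6 kidney, labelled as having the tumour's genotype, with Cy3. A value is the log2 ratio of tumour over kidney, centred on the median of the autosomal probes of its array, so positive values stand for relatively more tumour DNA than at the typical autosomal probe. The groups were wild-type tumours of a set labelled for Dmt1 (WT_Dmt1, n = 4), tumours with a Dmt1 transgene (Dmt1Tg, n = 4), wild-type tumours of a plain set (WT_plain, n = 3), and tumours of MutyhKO, Ogg1KO and Mth1KO mice (n = 3 each). Dmt1 takes iron into cells, and the products of Mutyh, Ogg1 and Mth1 act on oxidised guanine. The promoter of the transgene and the form of the deleted alleles are not given in the sources used here. The labelled genotype is that of both channels. Whether kidney and tumour came from the same animal is not given here, so other inherited differences need not be in both channels. Whether tumours came from separate animals is not stated in the labels, and p-values cover no more than the variation among the samples at hand.

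Serpins are proteins of a shared fold, most of which inhibit serine proteases by trapping the protease in a complex that destroys the serpin. They regulate clotting, clot lysis, complement and the proteases of neutrophils and killer lymphocytes, and a few carry hormones or assist collagen folding instead. In mice the Serpina and Serpinb families are tandem arrays in which several genes of other mammals have been copied many times, so a single event in the DNA can change many members at once.

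The members' probes have 46 to 60 bases, with positions in build mm9. The probes shown first are those of 3 Serpina genes that lie within 201 kb of each other and varied between tumours, beside Serpina3n at the far end of the cluster, which varied less. They are printed in lower case as the array files give them, with no part marked by capitals. Serpina1e is chr12:105192125-105192170, Serpina11 is chr12:105225905-105225964, Serpina9 is chr12:105249715-105249774 and Serpina3n is chr12:105647677-105647736.
Serpina1e: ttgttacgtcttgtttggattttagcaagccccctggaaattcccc
Serpina11: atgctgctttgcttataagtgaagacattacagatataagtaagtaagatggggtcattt
Serpina9: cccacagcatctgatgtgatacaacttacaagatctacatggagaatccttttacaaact
Serpina3n: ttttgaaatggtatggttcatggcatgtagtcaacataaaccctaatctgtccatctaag

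The probes of Serpinf1 and Serpinf2 are shown because these neighbours were called between the sets of wild-type tumours also with the slide as a random block. The sets shared no slide, so this block cannot separate slide from set. The Serpinf1 probes are chr11:75225234-75225293 (a) and chr11:75234135-75234190 (b), and the Serpinf2 probe is chr11:75250622-75250681.
Serpinf1 a: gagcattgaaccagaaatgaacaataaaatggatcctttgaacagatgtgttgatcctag
Serpinf1 b: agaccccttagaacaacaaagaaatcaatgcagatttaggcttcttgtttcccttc
Serpinf2: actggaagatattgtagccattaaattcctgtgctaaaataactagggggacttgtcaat
Genes of these families resemble each other, so the probes were compared with every other probe of the array. None of the 87 shared a stretch of 20 bases, on either strand, with another of the 170305 probes.

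MutyhKO 1 was the quietest array, with neighbouring probes scattering by 0.22 on the log2 scale, and WT_Dmt1 1 the noisiest, with 0.54, and 42 of the 87 Serpin probes were well above background in both channels on every array. The 20 arrays lay on 5 slides read on 2 scan days: WT_Dmt1 filled one slide and Dmt1Tg another on the first day, and the other 12 arrays were scanned on the second. WT_plain shared a slide with MutyhKO 1 and with no other knockout array, so slide and group cannot be told apart for Dmt1Tg against WT_Dmt1, nor for WT_plain against Ogg1KO, Mth1KO or WT_Dmt1. A region of the surface gave very low log2 ratios on 2 arrays, covering 8.02% of the spots of WT_plain 1 (median -2.20) and 4.98% of those of WT_plain 2 (median -2.97). Spots in these regions were left out, which removed 13 and 7 Serpin probes from these arrays by patches and outlier flags together.

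**Figure D1:**
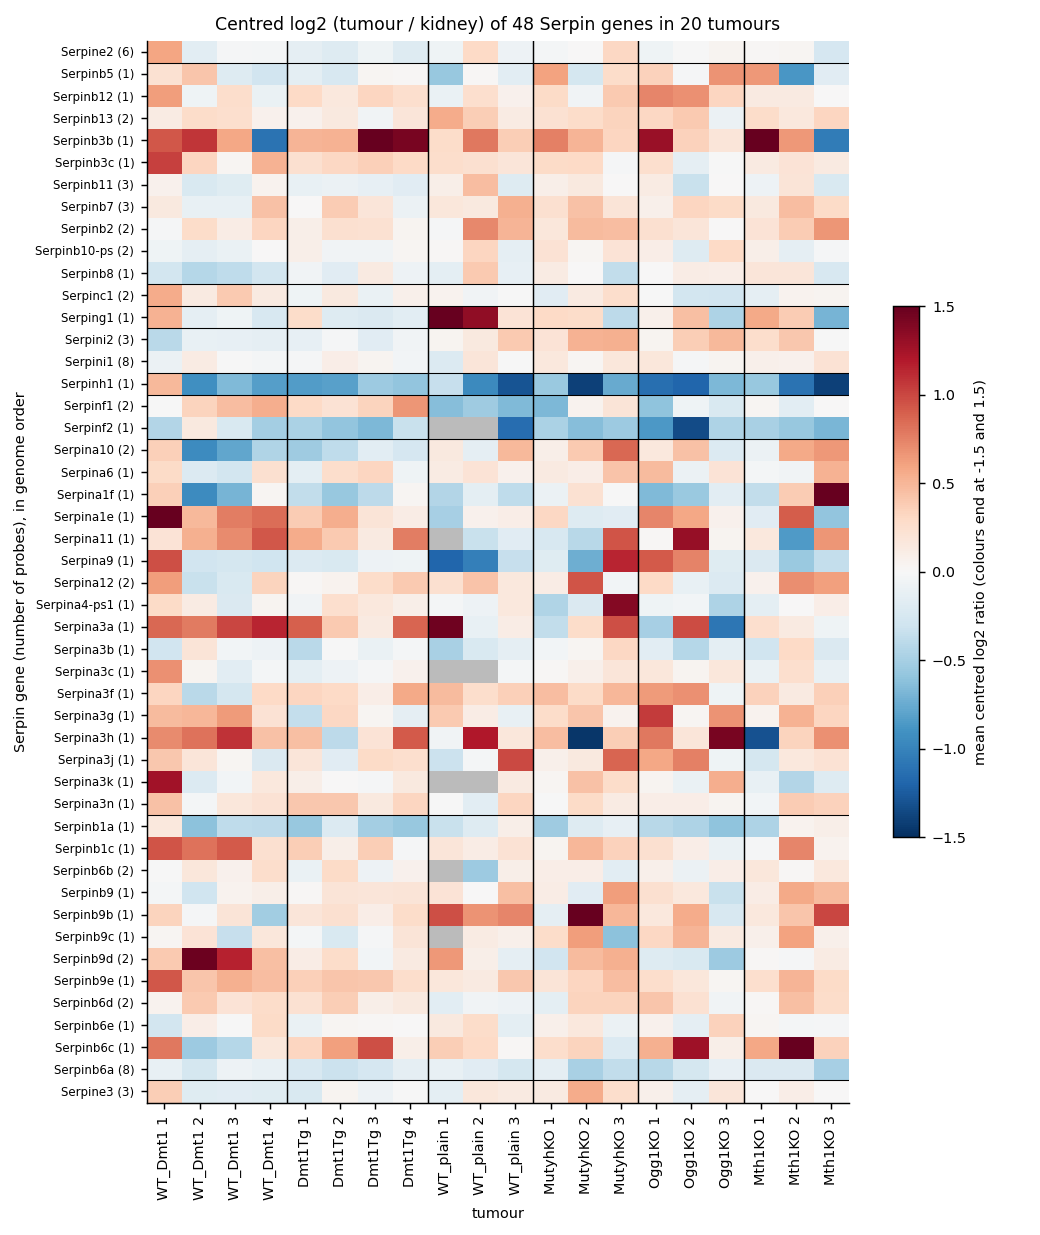
Mean centred log2 ratio of 48 of the 49 Serpin genes (rows, genome order, number of probes in brackets) in each of the 20 tumours (columns, by group), with red above 0, blue below 0 and grey where all probes were left out. Serpinh1 is below 0 in all tumours but WT_Dmt1 1, though its probe was well above background in both channels on only 8 of the 20 arrays. The darkest cells belong to genes with 1 probe, such as Serpina1f at 2.26 in Mth1KO 3.

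The largest cluster holds the Serpina genes of chromosome 12 (104862182 to 105647736), secreted serpins made mainly in the liver. Its 17 members are Serpina10, Serpina6, Serpina1f, Serpina1e, Serpina11, Serpina9, Serpina12, Serpina4-ps1, Serpina3a, Serpina3b, Serpina3c, Serpina3f, Serpina3g, Serpina3h, Serpina3j, Serpina3k and Serpina3n, with 19 probes among the 57 of the interval. The Serpina1 genes encode alpha-1 antitrypsin, which inhibits neutrophil elastase, and the Serpina3 genes are relatives of antichymotrypsin.

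The cluster mean was -0.12 in the lowest tumour (Mth1KO 1), 0.09 at the median and 0.58 in the highest (WT_Dmt1 1). WT_Dmt1 averaged 0.19 ± 0.28 (SD, n = 4), Dmt1Tg 0.09 ± 0.09 (SD, n = 4) and WT_plain 0.05 ± 0.06 (SD, n = 3). They were 0.21 ± 0.23 (SD, n = 3) in MutyhKO, 0.18 ± 0.14 (SD, n = 3) in Ogg1KO and 0.15 ± 0.24 (SD, n = 3) in Mth1KO. The groups overlapped, and in every group but Dmt1Tg and Ogg1KO the SD was larger than the mean. The members stood above the 155 probes of the flanks, 1 Mb on either side, in 19 of 20 tumours, by 0.22 ± 0.18 (SD, n = 20). The exception was Mth1KO 1, and the largest excess, 0.56, was in MutyhKO 3.

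Within the cluster the tumours differed most in 1 stretch of 201 kb (chr12:105048428-105249774), which runs to Serpina9 from a probe before Serpina1e in chromosome order. It holds 11 probes, 3 of them Serpina1e, Serpina11 and Serpina9, with 5 named by position alone and 3 named for other transcripts. Its ends were set after the values were seen and with the high value of Ogg1KO 1 known, so the values are a description with no test. Each probe was set against its own median over the 20 tumours, and the mean of the 11 probes was taken with the SE over probes.

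The stretch stood at 0.99 (SE 0.20) in Ogg1KO 1, 0.80 (SE 0.18) in Ogg1KO 2 and -0.26 (SE 0.14) in Ogg1KO 3. In MutyhKO the values were -0.10 (SE 0.05), -0.76 (SE 0.18) and 0.58 (SE 0.19) in tumours 1 to 3. In WT_plain they were -0.46 (SE 0.15), -0.57 (SE 0.15) and -0.02 (SE 0.08), over the 9, 10 and 11 probes kept. In Ogg1KO and MutyhKO the tumours lay on both sides of the median. The SE covers the spread over probes of 1 array and not the error of a repeated array.

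In Mth1KO the stretch stood at -0.08 (SE 0.05), -0.59 (SE 0.29) and -0.26 (SE 0.15). In WT_Dmt1 the values were 0.56 (SE 0.32), 0.02 (SE 0.24), -0.03 (SE 0.15) and 0.27 (SE 0.13). In Dmt1Tg they were 0.18 (SE 0.10), 0.20 (SE 0.12), 0.06 (SE 0.05) and 0.26 (SE 0.13). Dmt1Tg was the narrowest group, and its 4 tumours were all above the median.

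The mean of the other 46 probes of the interval ran from -0.18 to 0.32 by the same measure. In WT_plain 1 to 3 it rests on the 42, 42 and 45 probes kept. The ends of the stretch were set on these values and a mean of more probes spreads less, so the narrower span is not a test. The mean of these other probes was 0.16 (SE 0.06) in Ogg1KO 1, 0.07 (SE 0.08) in Ogg1KO 2 and -0.12 (SE 0.10) in MutyhKO 2. The stretch has a gap of 113 kb without probes, and 93.6 kb without probes lie before it. The 2 probes next after Serpina9 stood at 0.61 and 0.56 in Ogg1KO 1, 0.42 and 0.90 in Ogg1KO 2 and -0.43 and -0.74 in MutyhKO 2. In Ogg1KO 3 they stood at 0.17 and 0.10 while the stretch was at -0.26, and in WT_Dmt1 1 at -0.50 and 0.44. Where the pattern ends is thus not settled. In Ogg1KO 1, 2 probes outside it, at chr12:105521381-105521440 and chr12:105543681-105543740, also stood more than 1 above their medians, at 1.60 and 1.27. The first was at 1.70 in MutyhKO 3 and -1.35 in MutyhKO 2, while the second was at 0.78 and -0.78. Serpina3n stayed between -0.16 and 0.44 in all 20 tumours.

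**Figure D2:**
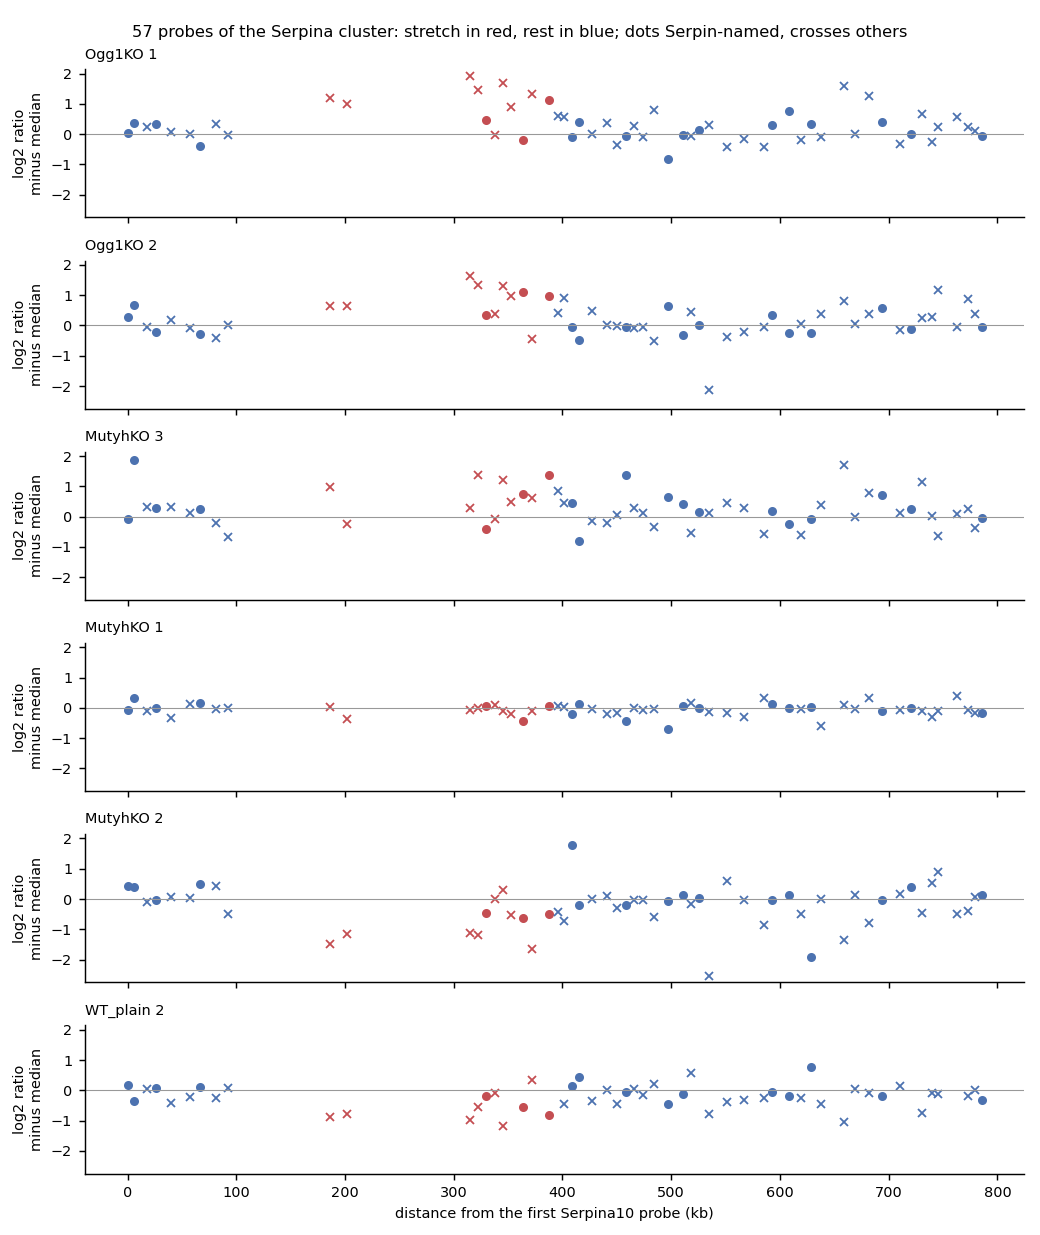
Log2 ratio minus its median over 20 tumours of each of the 57 probes of the Serpina cluster (vertical axis) against the distance in kb from the first Serpina10 probe, for 6 tumours. The 11 probes of the stretch (red) average 0.99 in Ogg1KO 1, 0.80 in Ogg1KO 2 and 0.58 in MutyhKO 3, and lie near the line in MutyhKO 1. They average -0.76 in MutyhKO 2 and -0.57 in WT_plain 2, where 10 were kept. Single probes lie on the other side of the line. Dots are Serpin-named probes and crosses are other probes.

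Of the 3 Serpin genes in the stretch, Serpina9, known from germinal centre B cells, is itself 1 of the 11 probes averaged. Its highest values were in MutyhKO 3, WT_Dmt1 1 (0.97), Ogg1KO 1 and Ogg1KO 2, which are also the tumours with the highest means of the stretch. Its centred log2 ratio was 0.92, 0.75 and -0.18 in Ogg1KO, -0.18, -0.73 and 1.15 in MutyhKO and -1.19, -1.02 and -0.35 in WT_plain. The Ogg1KO and WT_plain tumours did not overlap, and Serpina9 had the lowest p of the 49 genes in that comparison. The difference was 1.35 (SE 0.41, limma adjusted p = 0.187 over all genes), so it was not called.

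Serpina11 stood at 1.31 in Ogg1KO 2 and 0.94 in MutyhKO 3 but at 0.02 in Ogg1KO 1. Serpina1e was highest in WT_Dmt1 1, at 2.10, and stood at 0.74 in Ogg1KO 1, 0.58 in Ogg1KO 2 and -0.17 in MutyhKO 3. Each gene has 1 probe, and these 2 genes did not follow the stretch in every tumour. The kidney signal of Serpina1e was well above background on only 1 of 3 arrays in Ogg1KO and 1 of 3 in MutyhKO, which limits its values there.

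Serpina10, whose product inhibits clotting factor X with protein Z, and Serpina12 (vaspin, a serpin of fat tissue) have 2 probes each, the most in the cluster. Serpina10 ran from -0.94 in WT_Dmt1 2 to 0.86 in MutyhKO 3, with 10 tumours on either side of 0. Its probes disagreed: in Dmt1Tg the first stood between 0.16 and 0.70 and the second between -1.39 and -0.67. Serpina12 ran from -0.33 in WT_Dmt1 2 to 0.95 in MutyhKO 2, with a median of 0.20. Of the 9 Serpina3 genes, Serpina3a and Serpina3h had wider ranges than Serpina10. Serpina3h ran from -1.45 to 1.42, and its kidney signal was well above background on 1 array alone.

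**Figure D3:**
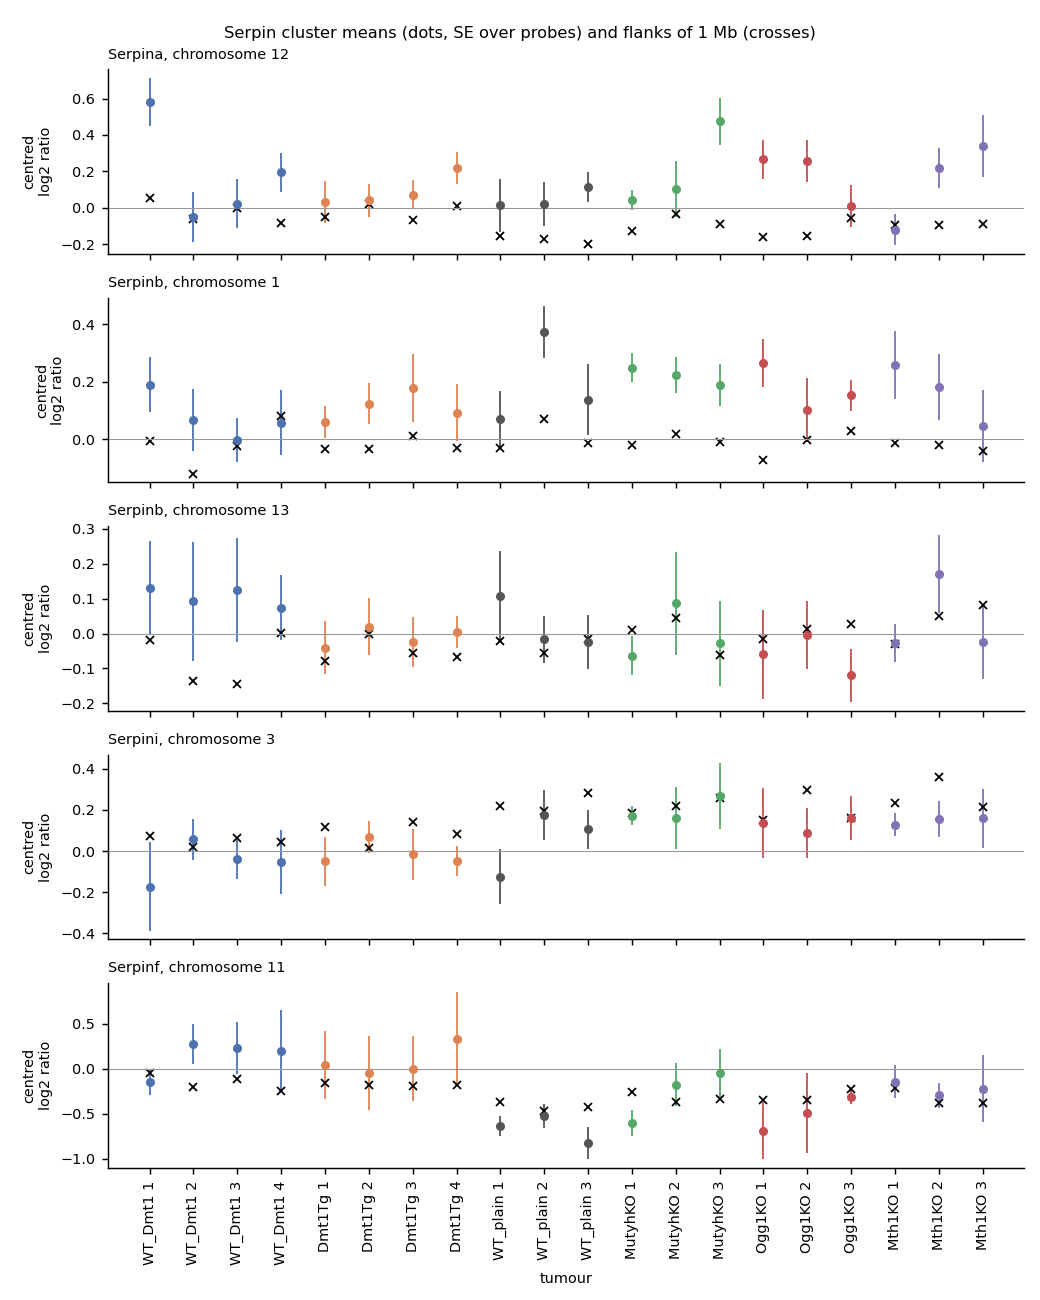
Mean centred log2 ratio of the member probes of each of the 5 clusters (dots, bars are the SE over probes) and of the flanks of 1 Mb (crosses) in each of the 20 tumours, with colours for the 6 groups. The Serpina members lie above their flanks in 19 of 20 tumours and the Serpini members below theirs in 17, and the Serpinf cluster stands at -0.82 in WT_plain 3, the 1 WT_plain tumour with all 3 of its probes.

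The Serpinb genes encode serpins that stay inside cells, many of them in epithelia and blood cells. The chromosome 1 cluster (108766299 to 109492438) holds Serpinb5, Serpinb12, Serpinb13, Serpinb3b, Serpinb3c, Serpinb11, Serpinb7, Serpinb2, Serpinb10-ps and Serpinb8, with 17 probes. Serpinb5 is maspin, and Serpinb2 is an inhibitor of the urokinase plasminogen activator. The cluster mean was -0.0027 in the lowest tumour (WT_Dmt1 3), 0.15 at the median and 0.37 in the highest (WT_plain 2). It lay above the flanks in 19 of 20 tumours, by 0.16 ± 0.09 (SD, n = 20), and the mean of all 56 probes of the interval lay above 0 in 20 of 20.

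The groups overlapped at the chromosome 1 cluster, from 0.08 ± 0.08 (SD, n = 4) in WT_Dmt1 to 0.22 ± 0.03 (SD, n = 3) in MutyhKO. Dmt1Tg stood at 0.11 ± 0.05 (SD, n = 4), WT_plain at 0.19 ± 0.16, Ogg1KO at 0.17 ± 0.08 and Mth1KO at 0.16 ± 0.11 (SD, n = 3 each). Serpinb11 and Serpinb7, with 3 probes each, were the best covered members. Serpinb11 ran from -0.34 in Ogg1KO 2 to 0.46 in WT_plain 2 with a median of -0.03. Serpinb7 ran from -0.12 in WT_Dmt1 3 to 0.53 in WT_plain 3 with a median of 0.19. Serpinb3b had the widest range of the cluster, from -1.10 to 1.94, but its only probe was well above background in both channels on 1 array.

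The chromosome 13 cluster (32935875 to 34087585) holds Serpinb1a, Serpinb1c, Serpinb6b, Serpinb9, Serpinb9b, Serpinb9c, Serpinb9d, Serpinb9e, Serpinb6d, Serpinb6e, Serpinb6c and Serpinb6a, with 22 probes. Serpinb9 inhibits granzyme B, the protease that killer lymphocytes put into their targets, and the Serpinb1 genes are relatives of an inhibitor of neutrophil proteases. The cluster mean was close to 0 throughout, from -0.12 in Ogg1KO 3 to 0.17 in Mth1KO 2 with a median of -0.01. It was 0.10 ± 0.03 (SD, n = 4) in WT_Dmt1 and -0.01 ± 0.03 (SD, n = 4) in Dmt1Tg. WT_plain stood at 0.02 ± 0.07, MutyhKO at -0.0021 ± 0.08, Ogg1KO at -0.06 ± 0.06 and Mth1KO at 0.04 ± 0.11 (SD, n = 3 each).

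The members of the chromosome 13 cluster did not move as one. Serpinb6a, with 8 probes, was below 0 in all 20 tumours, from -0.49 in Mth1KO 3 to -0.08 in WT_Dmt1 3 with a median of -0.23. Serpinb9e was above 0 in all 20, from 0.03 in Ogg1KO 3 to 0.93 in WT_Dmt1 1 with a median of 0.34. Serpinb9d had the widest range of the genes with at least 2 probes once medians and flanks were taken away. It stood at 0.40, 1.47, 1.15 and 0.45 in WT_Dmt1 and at 0.11, 0.28, -0.04 and 0.13 in Dmt1Tg. All 4 WT_Dmt1 tumours lay above all 4 Dmt1Tg tumours, and Serpinb9d had the lowest p of the members in that comparison. The difference was -0.75 (SE 0.23, limma adjusted p = 0.208), so it was not called.

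Serpini1 and Serpini2 on chromosome 3 (75056950 to 75433432) are neighbours with 11 probes. Serpini1 is neuroserpin, which inhibits the tissue plasminogen activator in the nervous system. The pair averaged -0.17 in the lowest tumour (WT_Dmt1 1), 0.09 at the median and 0.27 in the highest (MutyhKO 3). The flanks were above 0 in 20 of 20 tumours, and the pair lay below them in 17, by 0.10 on average (mean -0.10 ± 0.10, SD, n = 20). The pair stood at -0.05 ± 0.09 in WT_Dmt1 and -0.01 ± 0.06 in Dmt1Tg (SD, n = 4 each), and at 0.05 ± 0.16 in WT_plain, 0.20 ± 0.06 in MutyhKO, 0.13 ± 0.04 in Ogg1KO and 0.15 ± 0.02 in Mth1KO (SD, n = 3 each). All 9 knockout tumours lay above 0, and WT_plain spanned 0. Serpini1, with 8 probes, ran from -0.21 in WT_plain 1 to 0.22 in Mth1KO 3 with a median of 0.04.

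Serpinf1 and Serpinf2 on chromosome 11 (75225234 to 75250681) lie within 25 kb and have 3 probes. Serpinf1 encodes PEDF, a serpin that does not inhibit proteases and restrains the growth of blood vessels, and Serpinf2 encodes alpha-2 antiplasmin, which inhibits the protease that dissolves clots. The pair averaged -0.82 in WT_plain 3, -0.16 at the median and 0.33 in the highest tumour (Dmt1Tg 4). WT_plain 1 and WT_plain 2 had lost the Serpinf2 probe, so their means rest on Serpinf1 alone and are not ranked against the others. On Serpinf1 alone WT_plain 3 (-0.67), MutyhKO 1 (-0.67) and WT_plain 1 (-0.64) were close. The 197 probes of its flanks were below 0 in 20 of 20 tumours, with a median of -0.25. The pair averaged 0.14 ± 0.19 in WT_Dmt1 and 0.08 ± 0.17 in Dmt1Tg (SD, n = 4 each). It stood at -0.66 ± 0.15 in WT_plain, over unlike probes, and at -0.28 ± 0.29 in MutyhKO, -0.50 ± 0.19 in Ogg1KO and -0.22 ± 0.07 in Mth1KO (SD, n = 3 each). Set against its flanks the pair was higher in 12 of 20 tumours and lower in 8, from -0.40 in WT_plain 3 to 0.51 in Dmt1Tg 4, so it did not follow the region evenly.

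The 6 genes that stand alone include Serpine2, Serpinc1, Serping1, Serpinh1 and Serpine3. Once medians and flanks were taken away, Serping1 and Serpinh1 had the widest ranges of the 6. Serpinh1, a collagen chaperone of the endoplasmic reticulum with 1 probe, ran from -1.40 in Mth1KO 3 to 0.48 in WT_Dmt1 1 with a median of -0.82, while its flanks had a median of -0.13. Its kidney signal was well above background on no WT_plain array and its tumour signal on 2 of 3, so its level there has at most a bound. The kidney signal was well above background on 1 of 3 arrays in each of MutyhKO, Ogg1KO and Mth1KO. In WT_Dmt1 it was so on 2 of 4 and in Dmt1Tg on 4 of 4, so most of the low values rest on dim signal. Serpine2, an inhibitor of thrombin at cell surfaces with 6 probes, ran from -0.25 in Mth1KO 3 to 0.59 in WT_Dmt1 1 with a median of -0.03. WT_Dmt1 1, the noisiest array, gave the highest value of Serpine2, Serpinc1 and Serpinh1.

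Each genotype was compared with the wild-type set its label goes with, in 1 limma fit of all tumours and all autosomal genes, to ask whether the genotypes differ in copy number at these genes. No Serpin gene passed an adjusted p under 0.05 in any of the 4 comparisons. For Dmt1Tg against WT_Dmt1 0 of 49 were called, with 7 at an unadjusted p under 0.05, beside 0.0148% of all genes called. For MutyhKO against WT_plain 0 of 49 were called and 5 had an unadjusted p under 0.05, beside 1.68% of all genes called. For Ogg1KO against WT_plain the counts were 0 called and 3 unadjusted, beside 0% of all genes called, and for Mth1KO against WT_plain 0 and 4, beside 0.157%. The unadjusted counts are 14.3%, 10.2%, 6.12% and 8.16% of the members, against 12%, 16.1%, 11.5% and 12.3% of all genes, so only the first is above its background. The median differences of the members were -0.05, 0.08, 0.02 and 0.02, against -0.04, 0.05, 0.05 and 0.04 over all genes.

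The genes with the lowest p in Dmt1Tg and Ogg1KO, Serpinb9d and Serpina9, are given above. In Mth1KO it was Serpinf1, at 0.03, -0.16 and 0.01 against -0.64, -0.53 and -0.67 in WT_plain. The groups did not overlap, and the difference was 0.57 (SE 0.20, limma adjusted p = 0.220). In MutyhKO it was Serping1, at 0.30, 0.28 and -0.39 against 1.75, 1.33 and 0.21 in WT_plain, and the groups overlapped (limma adjusted p = 0.168). MutyhKO 1 and the 3 WT_plain tumours shared a slide, and there MutyhKO 1 lay within the range of WT_plain. The kidney signal of Serping1 was well above background on no WT_plain array, so its ratios there are bounds and no size is given, and the sign turned with normexp. Without MutyhKO 1, 1 gene, Serpinf1, was called in that comparison (limma adjusted p = 0.0476). MutyhKO 1 stood at -0.67 for Serpinf1, beside a WT_plain mean of -0.61 on the same slide. The MutyhKO tumours then left share no slide with WT_plain, so slide and genotype cannot be told apart. The share of all genes called under this setting is not given here.

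The same test was made in 2383 bins of 1 Mb, of which 15 hold a Serpin probe. None of the 15 was called in the 4 genotype comparisons, with 2, 3, 4 and 2 at an unadjusted p under 0.05 in Dmt1Tg, MutyhKO, Ogg1KO and Mth1KO. Over all bins 0%, 0.462%, 0.0839% and 0.042% were called, and 14.1%, 21.2%, 14.6% and 8.98% had an unadjusted p under 0.05. Another background correction (normexp) called 2, 2, 1 and 2 of the 15, and without WT_Dmt1 4 the Dmt1Tg comparison called 1. Shares over all bins under these settings are not given here.

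**Figure D4:**
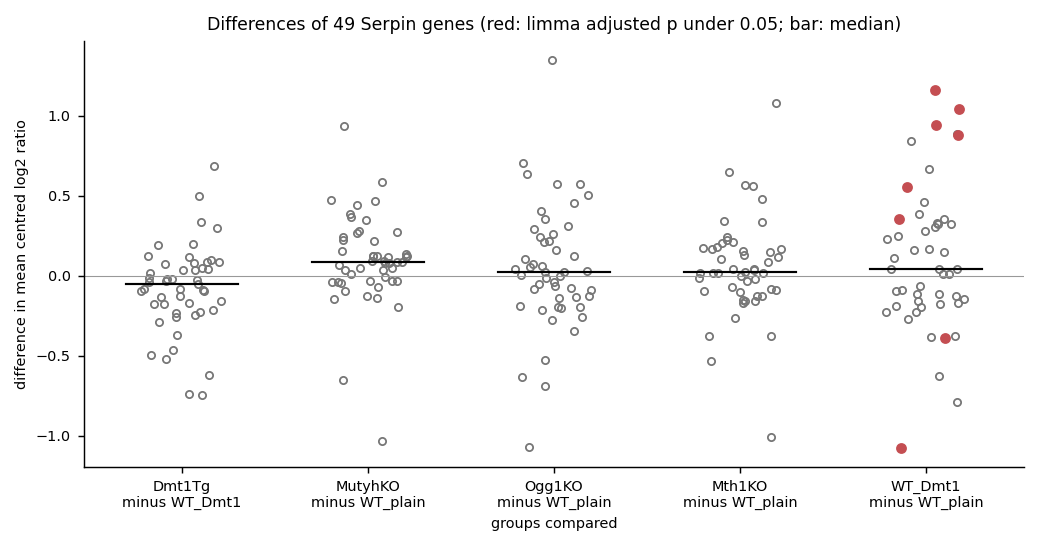
Difference in mean centred log2 ratio (vertical axis) of each of the 49 Serpin genes in the 5 comparisons, with red dots for a limma adjusted p under 0.05 and bars at the median. The 4 genotype comparisons have no red dot, and the comparison of the sets of wild-type tumours has 8.

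The sets of wild-type tumours share the labelled genotype, so they show how far values move with no change of genotype. Here 8 of 49 Serpin genes were called, 6 higher and 2 lower in WT_Dmt1, with 15 at an unadjusted p under 0.05. Over all genes 25.7% were called, 38.4% had an unadjusted p under 0.05 and the median difference was 0.14, against 0.04 over the members. Centred on the mode, 8 genes were higher and 1 lower. With WT_plain 1 and WT_plain 2 both left out, 0 genes were called, the lowest limma adjusted p was 0.0581, and the lone WT_plain tumour was assumed to vary like the other groups. Without WT_Dmt1 3, or without WT_plain 2, 4 were called.

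Serpinf1 was the firmest of the 8. It stood at -0.0016, 0.33, 0.46 and 0.54 in WT_Dmt1 and at -0.64, -0.53 and -0.67 in WT_plain, with no overlap. The difference was 0.94 (SE 0.18, limma adjusted p = 0.00208), and 0.49 with normexp (limma adjusted p = 0.0258). Both of its probes separated the sets: probe a stood between -0.04 and 0.15 in WT_Dmt1 and between -0.75 and -0.39 in WT_plain, and probe b between 0.04 and 1.05 and between -0.80 and -0.52.

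The region around Serpinf1 moved the same way by less. Its flanks averaged -0.16 ± 0.09 (SD, n = 4) in WT_Dmt1 and -0.42 ± 0.05 (SD, n = 3) in WT_plain, and the bin of 1 Mb differed by 0.32 (SE 0.05, limma adjusted p = 1.38e-05). Serpinf2 stood at -0.44, 0.15, -0.23 and -0.51 in WT_Dmt1. Of WT_plain only tumour 3, at -1.14, kept its probe. The difference was 0.88 (SE 0.26, limma adjusted p = 0.0244), with the lone tumour assumed to vary like the other groups. With the patch spots kept it was 0.44 and not called (limma adjusted p = 0.125).

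Serpina1e stood at 2.10, 0.49, 0.77 and 0.84 in WT_Dmt1 and at -0.50, 0.07 and 0.10 in WT_plain, with no overlap. The difference was 1.16 (SE 0.35, limma adjusted p = 0.0237). The size is limited by 1 probe whose kidney signal was well above background on 3 of 4 WT_Dmt1 and 2 of 3 WT_plain arrays. It was not called without WT_Dmt1 1 (0.81, limma adjusted p = 0.0562), without WT_plain 1 (0.96, limma adjusted p = 0.0983) or with the slide as a random block (limma adjusted p = 0.0501). Serping1, the C1 inhibitor of complement, was lower in WT_Dmt1 (0.52, -0.14, -0.06 and -0.24) than in WT_plain (1.75, 1.33 and 0.21), and the sets overlapped. It passed the threshold (limma adjusted p = 0.0329), and no size is given, since its kidney signal was well above background on no WT_plain array and on 1 of 4 WT_Dmt1 arrays. The sign turned with normexp (limma adjusted p = 0.408). Of the other settings 7 of 15 called it, among them the deposited value table, which holds nearly the same ratios.

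A further 3 of the 8 moved by less than Serpinf1, Serpinf2 and Serpina1e. Serpini2 was lower in WT_Dmt1 (-0.41, -0.11, -0.12 and -0.13) than in WT_plain (0.05, 0.15 and 0.39), by -0.39 (SE 0.13, limma adjusted p = 0.0362). Its bin moved with it by -0.12 (SE 0.04, limma adjusted p = 0.00767). Serpinb9e differed by 0.35 (SE 0.12, limma adjusted p = 0.0368) and Serpinb1c by 0.55 (SE 0.19, limma adjusted p = 0.0414), both with no overlap. Other settings called Serpini2 in 8 of 17, Serpinb9e in 8 of 16 and Serpinb1c in 7 of 15. These settings include the deposited value table, which holds nearly the same ratios and called the same 8 genes. With the slide as a random block, 3 of the 49 were called, Serpinf1 and Serpinf2 among them. The sets shared no slide, so this does not separate slide from set.

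Of the 15 bins with a Serpin probe 8 were called between the wild-type sets, 5 higher and 3 lower in WT_Dmt1, beside 59% of all bins. The count was 4 without WT_plain 3 and without WT_plain 1 and WT_plain 2 together, and 5 without WT_Dmt1 3, WT_plain 1 or WT_plain 2 alone. The bin with most of the Serpina cluster differed by 0.22 (SE 0.08, limma adjusted p = 0.0240), from 0.24 ± 0.11 (SD, n = 4) to 0.02 ± 0.10 (SD, n = 3), and holds the stretch that was low in WT_plain 1 and WT_plain 2. The scan day, the slide and the tumour set changed together here and cannot be told apart.

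**Figure D5:**
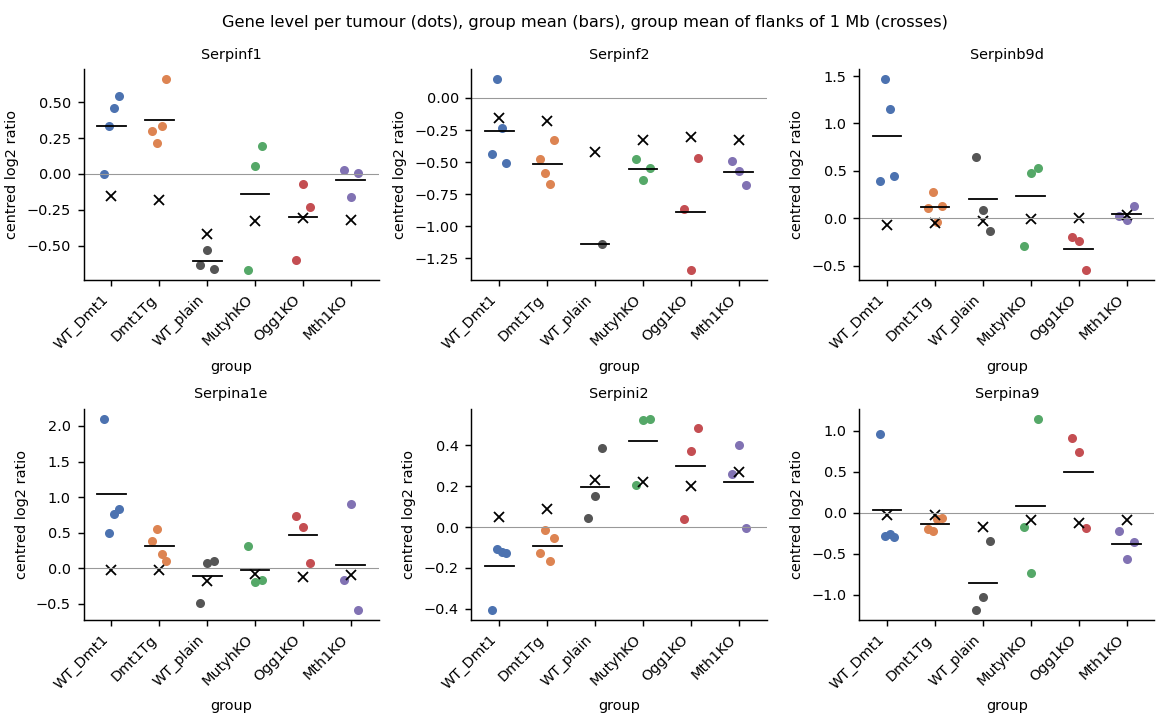
Centred log2 ratio of 6 Serpin genes in each tumour (dots), with the group mean (bar) and the group mean of the flanks of 1 Mb (cross). Serpinf1 lies between -0.0016 and 0.54 in WT_Dmt1 and between -0.67 and -0.53 in WT_plain, and its flanks differ in the same direction by less.

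Each tumour was also segmented into stretches of like ratio, and a gene was called gained or lost where its segment value was at least 0.2 or at most -0.2. Of 971 pairs of a Serpin gene and a tumour 83 were gained (8.55%), beside 2.07% of all gene and tumour pairs. Lost pairs numbered 54 (5.56%), beside 20.7%. Genes of a cluster share segments and are not independent, and these counts call nothing particular to the family. In all 29 genes were gained in some tumour, 5 were lost in some tumour and 15 were in neither.

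All 83 gained pairs lay in the 12 tumours of the second scan day. The share of that day among the gained pairs of all genes was not counted, so this is not read as a trait of the family. The 10 genes of the chromosome 1 cluster were gained together in WT_plain 2, WT_plain 3, Ogg1KO 2 and Mth1KO 1. All 17 Serpina genes were gained in Ogg1KO 1 and 14 of them in Ogg1KO 2. Serpini1 and Serpini2 were gained in 6 tumours, WT_plain 2 and 3, Ogg1KO 2 and the 3 of Mth1KO. The lost genes included Serpinf1 in 14 tumours, Serpinf2 in 13, Serping1 in 10 and Serpinh1 in 6.

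A segment value describes a run of probes and not the gene alone. The segment of Serping1 was lost in 10 tumours, though its flanks of 1 Mb ran from -0.12 to 0.09 with a median of -0.02. Its own probe had a median of 0.14 but was well above background in both channels on only 6 of 20 arrays. With each probe's median over the 20 tumours taken away, 5 pairs were gained (0.515%, beside 2.15% of all pairs) and 3 lost (0.309%, beside 1.78%). The members' share of gained pairs was then below that of all genes. The gained pairs included Serpina1e, Serpina11 and Serpina9 in Ogg1KO 1, all at 0.73 in 1 segment.

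The proteases that serpins inhibit and the proteins that bind them were read from a list of 28 genes, of which 23 had a probe of their name. By limma none was called in the 4 genotype comparisons, with 3, 6, 3 and 4 at an unadjusted p under 0.05 in Dmt1Tg, MutyhKO, Ogg1KO and Mth1KO, where their differences ran from -1.29 to 1.72. Over all genes 12%, 16.1%, 11.5% and 12.3% had such a p. Between the wild-type sets 8 of the 23 were higher and 3 lower in WT_Dmt1, beside the 25.7% of all genes called there. Plau, the urokinase plasminogen activator that Serpinb2 inhibits, differed by 0.84 (SE 0.15, limma adjusted p = 0.00112) and Plat, the tissue activator, by 0.34 (SE 0.11, limma adjusted p = 0.0303). F12, which Serping1 inhibits, differed by 1.09 (SE 0.26, limma adjusted p = 0.00642). F11 was lower by -0.41 (SE 0.12, limma adjusted p = 0.0175) and Klkb1 by -0.52 (SE 0.11, limma adjusted p = 0.00399). The called genes also included Hgf, lower by -0.61 (SE 0.10, limma adjusted p = 0.00058), and Masp2, higher by 1.46 (SE 0.35, limma adjusted p = 0.0071). No values of flanks or bins are given for these genes, so a difference of the gene is not told apart from one of its region.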

How the data were processed

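Each tumour had 1 dual-colour Agilent array, per the labels. Scanner files were made with Agilent Feature Extraction 10.7, per the submitters' processing notes, and hold red and green intensity after background subtraction and dye normalisation, per the file headers. Their log-ratio column, as deposited, is on the log10 scale with Cy5 as numerator. The authors' value table holds log2 ratios of the same direction that differ from that column by at most 6.29e-07 once rescaled, with column medians from -0.0275 to 0.0310 and no further centring. Here log2 of the processed intensities was taken, control and outlier-flagged spots and patches (a local median over 0.5 in size in a window of 21 spots) were dropped, spots of a probe averaged, and arrays centred on the autosomal median, with no loess. Number of arrays limits the precision. Genes with at least 1 probe and bins of 1 Mb with at least 10 probes were fitted with limma 3.58.1 (R 4.3.3), adjusted by Benjamini-Hochberg over all features. Segmentation used penalised least squares (penalty 40 times the noise variance, at least 5 probes) in Python 3.11.15, checked, like the limma step, on simulated data. Columns of no sample of the series numbered 0.

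Members, lists and comparisons were chosen with earlier results of these data known. The values of 1 member gene are not reported here, though it stays in all counts. Named were every cluster, up to 8 called genes, the lowest p where none was called, the best covered member of each cluster, the 6 widest ranges among genes with at least 2 probes and the 3 widest of single genes. Serpina3n, Serpina11, Serpina3h, Serpinb3b, Serpina1f and the partner genes with values were named after their values were seen. The main fit had no replicate block, since the labels do not say that the numbers mark litters, batches or animals. Same-numbered tumours did not deviate together (correlations of -0.14 to 0.16).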

Additional observations from a re-analysis of the deposited data

Results flagged for a closer look

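Among the reported clusters and genes, 4 values in groups of 4 tumours stood far from the other 3, and chance alone flags about 1 in 20 such groups (48 were examined). Serping1 stood at 0.28 in Dmt1Tg 1, while the other Dmt1Tg tumours were between -0.22 and -0.16. Serpini2 stood at -0.41 in WT_Dmt1 1, with the other tumours between -0.13 and -0.11. Serpina9 stood at 0.97 in WT_Dmt1 1, with the others between -0.29 and -0.26. Serpinb6a stood at -0.26 in WT_Dmt1 2, with the others between -0.11 and -0.08. WT_Dmt1 1 has the noisiest array of the series, and its part in these values was not tested.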

How the results depend on the processing

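Leaving out each tumour in turn gave 0 to 1 called Serpin genes for MutyhKO, 4 to 9 between the wild-type sets and 0 for the other 3 comparisons. For bins it gave 0 to 1 in Dmt1Tg, 4 to 8 between the wild-type sets and 0 elsewhere. With patch spots kept, 1 gene (Serpini1) was called in Mth1KO, and 1, 4 and 1 bins in MutyhKO, Ogg1KO and Mth1KO, with 5 between the wild-type sets. Normexp called 2, 2, 1 and 2 bins in Dmt1Tg, MutyhKO, Ogg1KO and Mth1KO, and the filter on dim probes 3 in MutyhKO. Shares of all genes or bins called under these settings are not given here, so these counts have no background beside them. Between the wild-type sets, the slide as a random block called 3 genes, a minimum of 3 probes 1 of the 7 genes it tests, and mode centring 5 bins. Without WT_plain 1 and WT_plain 2, a setting added after seeing the data, 0 genes and 4 bins were called. The replicate block left the wild-type comparison at 8 genes and 7 bins and called none elsewhere. Gained pairs numbered 177 (18.2%, beside 3.74% of all pairs) and 22 (2.27%, beside 1.05%) at penalties of 20 and 80. At thresholds of 0.1 and 0.3 they numbered 165 (17.0%, beside 9.6%) and 41 (4.22%, beside 0.304%). With the shared profile removed they numbered 5 (0.515%, beside 2.15%), so the members then fell below all pairs. Lost pairs numbered 34 (3.5%, beside 16.1%) at a penalty of 80. They numbered 105 (10.8%, beside 31.6%) and 30 (3.09%, beside 12.8%) at those thresholds, and 3 (0.309%, beside 1.78%) with the shared profile removed. Serping1 reversed under normexp, to 0.23 between the wild-type sets and 0.27 for MutyhKO. The mean excess of each cluster over its flanks moved by less than its SD over tumours in all settings tried. Causes were not tested. Signal over background limits Serpinb3b, Serping1, Serpinh1, Serpina3h and Serpinb6c, whose kidney signal was well above background on no array of at least 1 group.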
